A study of Mus musculus with 4 samples.

Results

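The 9 genes described here are ligands and receptors of the epidermal growth factor (EGF) family: the ligands Areg (amphiregulin), Ereg (epiregulin), Hbegf (heparin-binding EGF-like growth factor), Tgfa (transforming growth factor alpha), Btc (betacellulin) and Nrg1 (neuregulin 1), and the receptors Egfr, Erbb2 and Erbb3. They are 9 of the 20637 genes named on the arrays. The group was chosen by 1 measured value, that Areg read higher on the KO-labelled SPF array than on the WT SPF array, and the SPF genotype values below are therefore a description. All 9 were matched by RefSeq accession, through 11 probes, of which Egfr has 3 and each other gene 1.

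EGF family ligands are made as membrane-anchored precursors, and metalloproteases such as ADAM17 cut them free. A ligand pairs 2 receptors into a dimer, which signals through RAS, RAF and ERK and through PI3 kinase and AKT. In the gut the family is known for epithelial growth and repair, and amphiregulin is also known as a product of immune cells, among them mast cells, basophils, group 2 innate lymphoid cells, regulatory T cells and dendritic cells. Amphiregulin is a known target of cAMP signalling, which prostaglandin E2 raises in myeloid cells.

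The arrays were made from dendritic cells sorted by flow cytometry from the colonic lamina propria of C57BL/6J mice whose label reads CD300a-deficient (KO) or wild type (WT); CD300a is a phosphatidylserine receptor that inhibits the cell carrying it. The 4 groups were KO-labelled SPF, WT SPF, KO-labelled GF and WT GF, where SPF stands for specific pathogen-free and GF for germ-free housing. Each group has 1 array, with cells of 5 mice per condition, and the labels do not say whether these were pooled. No difference below therefore has a replicate check, and the text gives no p-value. The titles of the SPF samples add the word naïve, and the labels give no mouse ages and no agent.

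The KO label could not be checked from expression. Cd300a had levels of 7.87 (KO-labelled SPF), 7.82 (WT SPF), 7.99 (KO-labelled GF) and 7.54 (WT GF), and the sources used here do not give the place of its probe relative to the deletion. The GF mice were male and the SPF mice female by their labels, and the GF arrays lay on another slide with another scan, so housing cannot be told apart from slide, scan and sex. Xist, transcribed from the inactive X chromosome, read 3.56, well above background, on the KO-labelled GF array although its label says male. On that array the Y-linked genes Ddx3y, Uty and Eif2s3y were well above background as well, at 0.53, -2.09 and -0.65. Eif2s3y also read -2.61, well above background, on the KO-labelled SPF array although its label says female. Between 13797 and 15055 genes were well above background on an array. Of 15 measurable markers of conventional dendritic cells, 15, 15, 14 and 14 were well above background on the arrays in the order just given, and Xcr1 was not on the GF arrays. All 9 measurable macrophage and monocyte markers were well above background on every array. Their median levels were 5.11, 4.63, 4.02 and 5.05 in the same order, against 2.09, 1.85, 0.99 and 2.15 for the dendritic cell markers.

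Levels are log2 values of the scanner's background-subtracted signal relative to the array's 75th percentile, which is set to 0, and a difference is the KO-labelled level less the WT level, or the GF level less the SPF level, on that log2 scale. A gene counts as measured in a comparison when its probe was well above background, by the scanner software's flag, on at least 1 of both arrays. Where it was so on only 1, a bound ("at least") is given in place of the difference, from the brighter level over the dim array's lowest level well above background or the dim probe's own level, whichever was higher. A line of 2-fold, which is 1 on the log2 scale, serves for counts, which take a gene's measured value even if 1 array of the pair lay below background. On probes with 5 or more spots and a signal of 50 to 500, the median SD over spots of one array was 0.101, 0.099, 0.095 and 0.103 log2 units on the 4 arrays; this covers the reading of a spot and not the variation between mice or preparations.

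The upstream sequence of Areg is shown because this gene carries the SPF genotype difference and is a known cAMP target. RefSeq promoter sequences of GRCm38.p6 were at hand for 5 of the 9 genes, Areg, Tgfa, Btc, Egfr and Erbb2. The 250 bases before the annotated start of Areg lie on the plus strand at chr5:91139349-91139598. Capitals mark a cAMP response element (TGACGTCA), which begins 61 bases before the start, and a TATA box (TATAAA), which begins 31 bases before it.
Areg: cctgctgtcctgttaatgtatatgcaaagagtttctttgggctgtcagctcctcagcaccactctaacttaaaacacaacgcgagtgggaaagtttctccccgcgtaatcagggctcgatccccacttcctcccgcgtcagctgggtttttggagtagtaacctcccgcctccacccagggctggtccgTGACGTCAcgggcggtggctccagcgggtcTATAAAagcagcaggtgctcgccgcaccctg
Both strands were searched, and the motifs were picked after the Areg sequence had been seen. TGACGTCA occurs in the same window of 508 of 32851 mouse promoters, or 1.55%, and TATAAA in 12.4%. Among the 5 family members with a sequence, Areg was the one with either of these motifs. The AP-1 letters TGANTCA, found in 6.75% of all windows, occurred in none of the 5. A match describes these letters and is not evidence of a site in use. In the same annotation Ereg is the next gene to Areg, with 0 genes between them, and 2 annotated genes lie between Areg and Btc.

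Areg, a low-affinity ligand of EGFR, stood apart on the WT SPF array, where it read lowest. Its processed signal was 361.72 ± 36.26 in KO-labelled SPF cells, 62.78 ± 6.62 in WT SPF cells, 507.18 ± 50.81 in KO-labelled GF cells and 365.48 ± 36.64 in WT GF cells (the scanner software's error of 1 spot). The corresponding levels were 1.15, -1.46, 1.24 and 0.88, so the other 3 arrays lay close together. Under SPF the difference was 2.61 (6.11-fold), the value that chose the gene, and it lay at the 99.1 percentile of the genes measured in that comparison. Among genes of similar brightness, those in the third quartile counting from the dimmest, 2.6% read at least 2-fold higher with the KO label under SPF.

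Under GF housing Areg was 0.36 higher on the KO-labelled array (1.28-fold), at the 75.1 percentile and within the 2-fold line. The difference between genotypes was thus larger under SPF than under GF by 2.25 log2 units, a value with no test. Between housings Areg differed by 0.09 in KO-labelled cells (1.06-fold; -0.18 with scaling to the array's median) and by 2.34 in WT cells (5.07-fold). The KO minus WT value under SPF and the GF minus SPF value in WT cells share the WT SPF array, and both rest on its single Areg spot of 62.78. A background correction with an offset gave smaller values for both, 1.87 and 1.69. In bulk RNA such as this, fewer cells that make a transcript and less transcript per cell cannot be told apart.

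The low reading on the WT SPF array is part of what chose Areg, and the next count is a description that rests on the same spot. Of 12884 genes well above background on all 4 arrays, 44 (0.342%) were, like Areg, at least 2-fold lower on the WT SPF array than on each of the others while the others lay within 2-fold of one another. The gene with the profile nearest to that of Areg over the 4 arrays, among 12883 compared, was Hid1, with levels of 1.65, -0.35, 2.12 and 1.42 and a distance of 0.50 (Euclidean, on centred log2 values). Timd4, a phosphatidylserine receptor of macrophages, followed at 0.85, then Mtf1 and Gprc5a at 0.88 and Ano7 at 0.89. With 4 arrays such a likeness is a description.

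**Figure D1:**
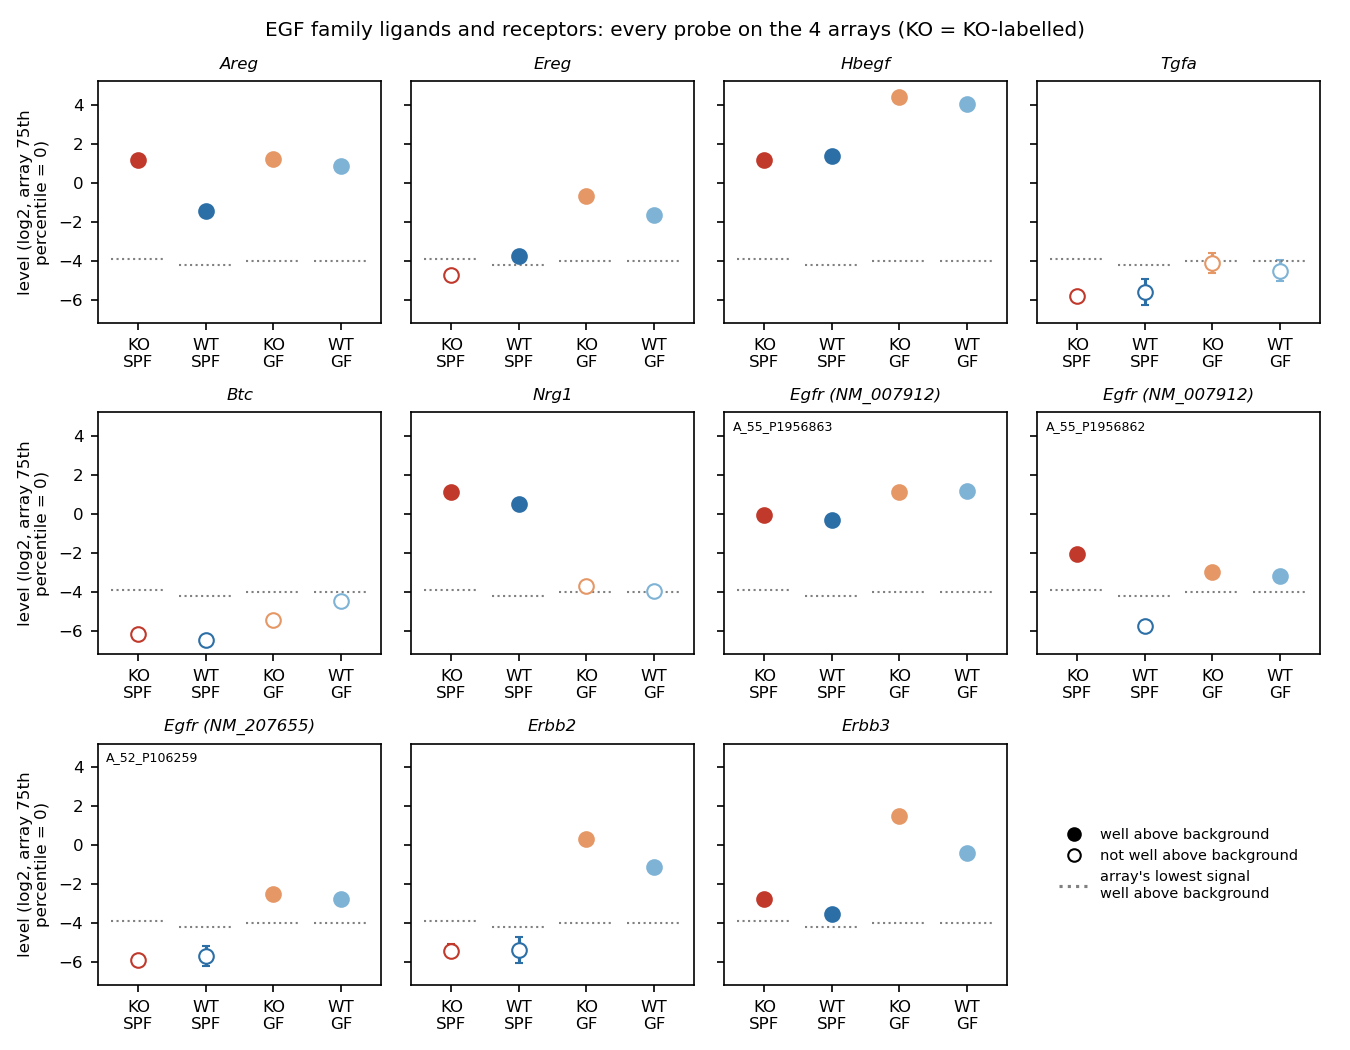
Level of every probe of the 9 genes (log2, with the array's 75th percentile at 0) on the 4 arrays, 1 point per array; filled points are well above background, open points are not, bars are the SD over spots where a probe has several, and dotted lines mark each array's lowest signal well above background. Areg reads -1.46 on the WT SPF array and between 0.88 and 1.24 on the other 3, while Erbb2, Erbb3, Hbegf and Ereg read high on both GF arrays and Nrg1 on both SPF arrays.

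Ereg, a ligand of EGFR and ERBB4, did not share the Areg pattern although the genes are neighbours. Its signal was 6.00 ± 2.67 (below the flag) in KO-labelled SPF cells, 12.86 ± 2.56 in WT SPF cells, 135.49 ± 13.94 in KO-labelled GF cells and 63.24 ± 6.99 in WT GF cells. Both GF arrays were high and both SPF arrays at or near the floor. Under SPF Ereg was at least 1.12-fold lower on the KO-labelled array (log2 difference of -0.18 with the offset background). No direction of Ereg is read from these values at or near the floor. Under GF it was 0.98 higher on the KO-labelled array, just inside the 2-fold line (1.27 in the deposited table's scaling). Under GF it was at least 9.46-fold higher than under SPF in KO-labelled cells and 2.10 higher in WT cells (0.56 with the offset background).

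Hbegf, a ligand of EGFR and ERBB4 that is also the diphtheria toxin receptor, differed with housing and little with genotype. Its levels were 1.19 in KO-labelled SPF cells, 1.35 in WT SPF cells, 4.40 in KO-labelled GF cells and 4.07 in WT GF cells. Its processed signals were 4520.94 and 3329.66 on the KO-labelled and WT GF arrays, and 370.97 and 440.13 on the KO-labelled and WT SPF arrays. Hbegf was 3.21 higher under GF in KO-labelled cells (9.23-fold) and 2.72 higher in WT cells (6.58-fold). Its genotype differences were -0.16 under SPF and 0.33 under GF.

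Nrg1, a ligand of ERBB3 and ERBB4, went the other way. It had signals of 355.73 ± 35.68 on the KO-labelled SPF array and 247.11 ± 24.83 on the WT SPF array, against 16.52 ± 3.94 and 12.62 ± 3.49 on the KO-labelled and WT GF arrays, neither of which was well above background. By measured values Nrg1 was 28.41-fold lower under GF in KO-labelled cells and 22.49-fold lower in WT cells. These folds are no lower bounds, since they rest on the dim GF readings themselves. The offset background gave smaller log2 differences, -2.53 and -2.13. Under SPF it was 0.61 higher on the KO-labelled array (1.53-fold), inside the 2-fold line. Tgfa, read by 10 spots, and Btc were not well above background on any array, so neither has a difference.

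Other ligands of the family were mostly below background too. Of Egf, Epgn, Nrg2, Nrg3, Nrg4 and the receptor Erbb4, Nrg2 was the one measured on all arrays, with genotype differences of 0.57 under SPF and -0.22 under GF. Egf itself passed the flag on the KO-labelled GF array alone, at least 1.64-fold higher than on the WT GF array. Epgn, Nrg3, Nrg4 and Erbb4 were well above background on no array, and they have no fold.

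Among the receptors, Erbb2, which has no known ligand of its own and pairs with the others, was seen on the GF arrays alone. Over 10 spots its signal was 261.86 ± 9.47 on the KO-labelled GF array and 91.53 ± 8.55 on the WT GF array (SD over spots), and the SPF arrays read 3.87 and 4.52, not well above background. The difference between genotypes under GF was 1.41 (2.65-fold), at the 95.9 percentile. Its levels there, 0.29 ± 0.05 and -1.12 ± 0.14, lay further apart than the spots of either array. That spread covers the reading of spots and not the variation between mice or preparations. Erbb2 was at least 18.27-fold higher under GF in KO-labelled cells and at least 8.49-fold higher in WT cells (2.11 and 1.11 on the log2 scale with the offset background).

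Erbb3, a receptor with an impaired kinase that signals through its partners, was measured on all 4 arrays. Its signals were 23.72 ± 3.34 in KO-labelled SPF cells, 14.78 ± 2.49 in WT SPF cells, 608.95 ± 60.97 in KO-labelled GF cells and 150.08 ± 15.24 in WT GF cells. The KO-labelled array was higher in each housing, by 0.77 under SPF (0.16 with the offset background) and by 1.91 under GF (3.75-fold), at the 98.0 percentile of that comparison. GF arrays were higher than SPF arrays by 4.28 in KO-labelled cells (19.46-fold) and by 3.14 in WT cells (8.84-fold), or 2.78 and 1.37 with the offset background.

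Egfr, the receptor for Areg, differed little between genotypes on its brightest probe. That probe had levels of -0.05 in KO-labelled SPF cells, -0.30 in WT SPF cells, 1.13 in KO-labelled GF cells and 1.15 in WT GF cells. The genotype differences were 0.25 under SPF and -0.02 under GF, the second of which was positive with cyclic loess (0.12) or quantile scaling (0.13). The housing differences were 1.18 in KO-labelled cells (2.26-fold) and 1.45 in WT cells (2.72-fold). Its other probes did not all follow. A dim probe for the same transcript, with 1 spot, read -2.09 on the KO-labelled SPF array, from a signal of 38.23 ± 11.25. It failed the flag on the WT SPF array (3.19 ± 2.26), which makes it at least 4.34-fold higher with the KO label. It was 0.92 lower under GF in KO-labelled cells, against 1.18 higher for the brightest probe. The probe for a second Egfr transcript, with 10 spots, was well above background on the GF arrays alone, at least 2.61-fold higher in KO-labelled and 2.65-fold higher in WT cells.

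**Figure D2:**
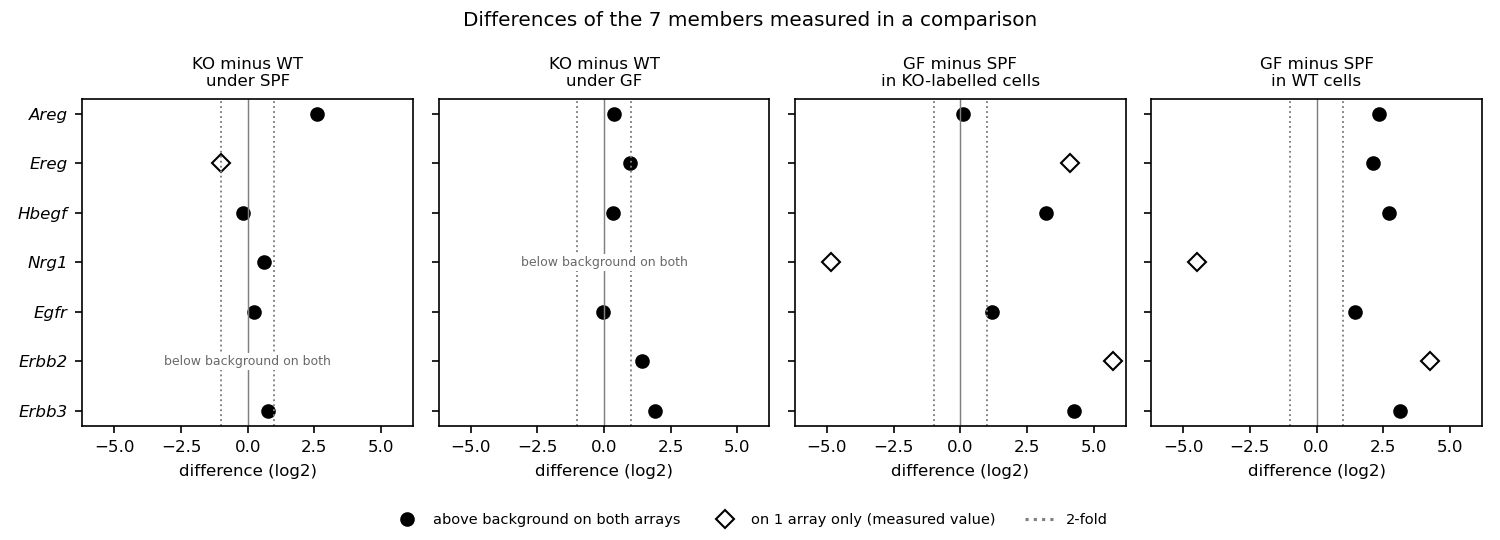
Difference (log2) of the 7 measured genes of the family in the 4 comparisons; filled circles are above background on both arrays, open diamonds on 1 array only (measured value, not the bound), and dotted lines mark 2-fold. Areg lies furthest to the right under SPF between genotypes at 2.61, Erbb3 does so under GF at 1.91, and in both housing comparisons Nrg1 alone lies left of the lines.

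Counted over the family, the comparisons read as follows. Between genotypes under SPF, 6 of 9 members were measured; 1 (Areg) was at least 2-fold higher and 1 (Ereg) at least 2-fold lower by its measured value, where 5.74% and 6.49% of all 14877 measured genes were. Since that contrast chose the group, nothing is read from these counts, and Ereg was below background on 1 of both arrays. The nearest member inside the line was Erbb3 at 0.77. Between genotypes under GF, 6 members were measured, 2 of them (Erbb2 and Erbb3) were at least 2-fold higher and 0 lower, against 8.84% and 7.7% of 15697 genes, and the median over the members was 0.67 against -0.20 over all genes.

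Between housings most members passed the line. In KO-labelled cells 7 members were measured, 5 were at least 2-fold higher under GF and 1 (Nrg1) lower, against 21.4% and 15.6% of 15572 genes, with a median of 3.21 against 0.04 over all genes. In WT cells 6 of the 7 measured were at least 2-fold higher under GF and 1 (Nrg1) lower, against 17.5% and 9.44% of 15656 genes, with a median of 2.34 against 0.13. Areg made the difference between the counts of 5 and 6. Counting only members above background on both arrays left 3 of 4 higher in KO-labelled cells and 5 of 5 in WT cells. The shares of all genes given here take genes above background on at least 1 array, so they do not match these last counts.

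The balance of all genes depended on how the KO-labelled GF array was scaled. Between genotypes under GF, 1387 genes lay past the line upwards and 1209 downwards, but 2291 and 571 in the deposited table's scaling, and 935 and 2343 with scaling to the median. Between housings in KO-labelled cells the counts were 3337 and 2436, against 4613 and 1501 in the deposited table and 2610 and 3456 with the median. The median of all genes moved with them, from -0.41 to 0.08 between genotypes under GF and from -0.23 to 0.39 between housings in KO-labelled cells. The differences of Erbb2 and Erbb3 between genotypes under GF stayed at 1.02 or more under every alternative that was run.

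Epithelial transcripts moved with housing in the same arrays. By measured values all 16 epithelial markers, Epcam, keratins and colonocyte genes among them, were at least 2-fold higher under GF in both genotypes. Above background on both arrays were 12 of them in KO-labelled cells and 10 in WT cells, and the bound of Cdx2 in WT cells was 1.65-fold. The list had a median difference of 5.22 in KO-labelled cells and 5.97 in WT cells; with the offset background 15 and 14 markers were past the line. Their summed level, as multiples of the array's 75th percentile, was 589.04 on the KO-labelled GF array and 409.15 on the WT GF array, against 10.01 and 7.39 on the SPF arrays of the same order. Between genotypes under GF, 4 of 16 passed the line upwards with the KO label and 0 downwards, with a median of 0.65 (0.44 to 1.03 over the scalings). That count of 4 was 9 with quantile scaling, 6 in the deposited table, 3 with cyclic loess and 2 with median scaling or the offset background. Muc2, the goblet cell mucin, was 1.93 higher and Cdx2, an intestinal transcription factor, 1.62 higher. Ereg, Hbegf, Egfr, Erbb2 and Erbb3 are also transcribed by epithelium. The part of epithelial RNA in their values, and in those of Areg, was not tested.

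Markers of several immune cells went the other way between housings, as Nrg1 did. In KO-labelled cells 5 of 6 measured B cell and plasma cell markers were at least 2-fold lower under GF (median -4.19). So were 6 of 7 neutrophil and eosinophil markers (median -2.95) and 9 of 15 dendritic cell markers (median -1.13), with 0 higher in each list. Among all genes 15.6% were lower there, and 9.44% in WT cells. The dendritic cell count of 9 was 6 with quantile or cyclic loess scaling, 5 with the offset background and 4 in the deposited table. Its median ran from -1.40 to -0.62 over the scalings. In WT cells 4 of 5 B cell and plasma cell markers were lower (median -2.56), 6 of 7 neutrophil and eosinophil markers (median -2.26) and 2 of 15 dendritic cell markers (median -0.13, with 1 higher). Macrophage and monocyte markers had medians of -0.80 in KO-labelled and -0.26 in WT cells, fibroblast and smooth muscle markers 0.80 and -0.10, mast cell and basophil markers -0.75 and -2.77, group 2 innate lymphoid markers -1.35 and -1.33, and T cell markers 0.95 and 0.52. The part of these cells in the Nrg1 values was not tested.

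Markers of other cells known to make Areg were present in part. Of 13 mast cell and basophil markers, Cpa3, Mcpt1, Mcpt2, Mcpt8, Cma1, Fcer1a and Ms4a2 were well above background on no array; under SPF 0 of 6 measured were at least 2-fold higher with the KO label and 3 lower, among them Gata1 at -2.87 and Tpsb2 at -1.32. Under GF 1 of 4 was higher (Tpsb2, 1.70) and 2 lower, among them Gata2 at -1.43. Of 9 markers of group 2 innate lymphoid cells, Gata3, Il5 and Il17rb were well above background on no array; under SPF 1 of 6 was higher (Il7r, 2.13) and 0 lower, and under GF 0 of 5 were higher and Il7r was lower at -1.13. Of 9 T cell and regulatory T cell markers on the array, 8 (KO-labelled SPF), 7 (WT SPF), 6 (KO-labelled GF) and 7 (WT GF) were well above background. Under SPF 1 of 8 was at least 2-fold higher and 0 lower: Il2ra, the interleukin 2 receptor alpha chain, was at least 3.53-fold higher with the KO label, as Areg was (named after its value was seen). Under GF 0 of 7 were higher and 1 lower. Foxp3 read -1.77 and -1.64 on the KO-labelled and WT SPF arrays and -0.56 and -0.92 on the KO-labelled and WT GF arrays.

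Other marker lists differed between the SPF arrays, where Areg differed. Of 6 measured B cell and plasma cell markers, 5 passed the line upwards with the KO label and 0 downwards, with summed levels of 96.56 against 21.18 on the WT SPF array; Pou2af1 was 2.35 and Jchain 2.23 higher. Epithelial markers had 4 of 13 higher and 1 lower, Car1 at -1.40, with a median of 0.36. Krt19 was 2.30 and Lgals4 1.40 higher, Krt8 at least 3.50-fold and Cdx1 at least 3.29-fold higher (named after their values were seen). These 4 read lowest on the WT SPF array, as Areg did. So did Epcam, Krt18, Cldn7 and Cldn3, within 2-fold of the KO-labelled SPF array. Car1, Muc2, Krt20, Vil1 and Fabp2 read lowest on the KO-labelled SPF array. With the offset background 1 epithelial marker was higher and 0 lower. Of the neutrophil and eosinophil markers 5 of 8 were lower and 1 higher, Epx, whose bound was 1.99-fold, with a median of -1.21 (3 lower, 0 higher and a median of -0.36 with the offset background). Fibroblast and smooth muscle markers had a median of -0.73 with 1 of 10 lower, and macrophage and monocyte markers one of -0.30 with 2 of 9 higher. Of the dendritic cell markers 3 of 15 were higher and 0 lower, Ccr7 by 2.12, Zbtb46 by 1.47 and Xcr1 by 1.29. With GF housing 0 of 14 were higher with the KO label and 4 lower, among them Ccr7 at -1.91. That count of 4 was between 2 and 6 under the other scalings. Under GF the medians were -0.37 (B cell and plasma cell), -1.03 (neutrophil and eosinophil), -0.08 (fibroblast and smooth muscle), -0.61 (macrophage and monocyte) and -0.75 (dendritic cell), and Areg stayed inside the line there. The part of these cells in the Areg values was not tested.

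The rest of the EGF receptor pathway was taken from lists that were written with earlier results of these data known. The proteases and cofactors that shed the ligands differed little: 0 of 10 passed 2-fold in either direction under SPF, with a median of -0.06, and under GF 1 was lower, Rhbdf2, a cofactor of ADAM17, at -1.10. Of 22 adaptors and kinases below the receptors, 1 was higher under SPF, Pik3r1, the regulatory subunit of PI3 kinase, at 1.06, and 0 lower; under GF 0 passed the line. Their medians were 0.06 and -0.29.

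Feedback inhibitors restrain receptor signalling. Of 16 measured, 4 passed the line upwards with the KO label under SPF by measured values, 3 of them above background on both arrays, and 0 downwards, beside the 5.74% and 6.49% of all genes; the median was 0.25. The 4 were Spred2 at 1.70 and Spred1 at 1.58, which curb RAS and RAF, Lrig1 at 1.47, which promotes receptor turnover, and Lrig3. Lrig3 was at least 1.42-fold higher and was named after its value was seen. With the offset background the count of 4 was 2. Spred2 read 0.85 on the KO-labelled SPF array and -0.85 on the WT SPF array, against -1.23 and -1.31 on the KO-labelled and WT GF arrays. Under GF 0 of 17 passed the line, and the median was -0.20, the same as over all genes. Of 15 genes known to follow ERK activity, 2 were higher under SPF and 0 lower, the ERK phosphatases Dusp4 at 2.21 and Dusp5 at 1.47, while the median was -0.17. Under GF 2 were higher and 1 lower: Etv4 at 1.13, Spred3, at least 5.35-fold higher and named after its value was seen, and Ier3 at -1.17, with a median of -0.57.

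Genes known to respond to cAMP and prostaglandin E2 gave different counts in each housing. All 19 were well above background on every array. The list was written with earlier results of these data known, and the SPF genotype contrast is the one that chose Areg. Under SPF 8 were at least 2-fold higher with the KO label and 0 lower, beside 5.74% and 6.49% of all genes. The median of the list was 0.67 against -0.05 over all genes. The 3 with the largest differences were the cytokine Il6 at 2.21, the nuclear receptor Nr4a3 at 1.76 and Ptgs2, the inducible cyclooxygenase upstream of prostaglandin E2, at 1.73. Under GF 0 were higher and 8 lower, beside 8.84% and 7.7% of all genes, with a median of -0.78 against -0.20 over all genes. The 3 largest were Crem, a cAMP-responsive transcription factor, at -1.70, Ptgs2 at -1.59 and Il6 at -1.39. The count of 8 lower was between 3 and 9 under the other scalings, with the median negative in each.

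Across housing the values of Areg and of the genes named above were as follows. Ptgs2 read 5.89 in KO-labelled SPF cells, 4.16 in WT SPF cells, 1.34 in KO-labelled GF cells and 2.93 in WT GF cells. Crem read 5.16, 3.50, 1.38 and 3.08 on the arrays in that order, and Il6 2.81, 0.60, -0.05 and 1.34. All 3 were lowest on the KO-labelled GF array. Areg read 1.24 there and 1.15 on the KO-labelled SPF array. With scaling to the array's median this Areg difference was -0.18, so the order of those arrays was reversed. Between housings in KO-labelled cells 15 of the 19 were at least 2-fold lower under GF and 0 higher, with a median of -1.73, while Areg differed by 0.09. In WT cells 2 were higher and 4 lower, with a median of -0.42, while Areg was 2.34 higher. The 2 were Nr4a2, higher by 1.84, and Per1, higher by 1.74 (named after their values were seen), and both read lowest on the WT SPF array, as Areg did. None of the 15 list members with a promoter sequence held TGACGTCA in the 250 upstream bases, and 7 of 15 held TGACG, the first 5 letters of that element, which 17.8% of all windows hold.

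**Figure D3:**
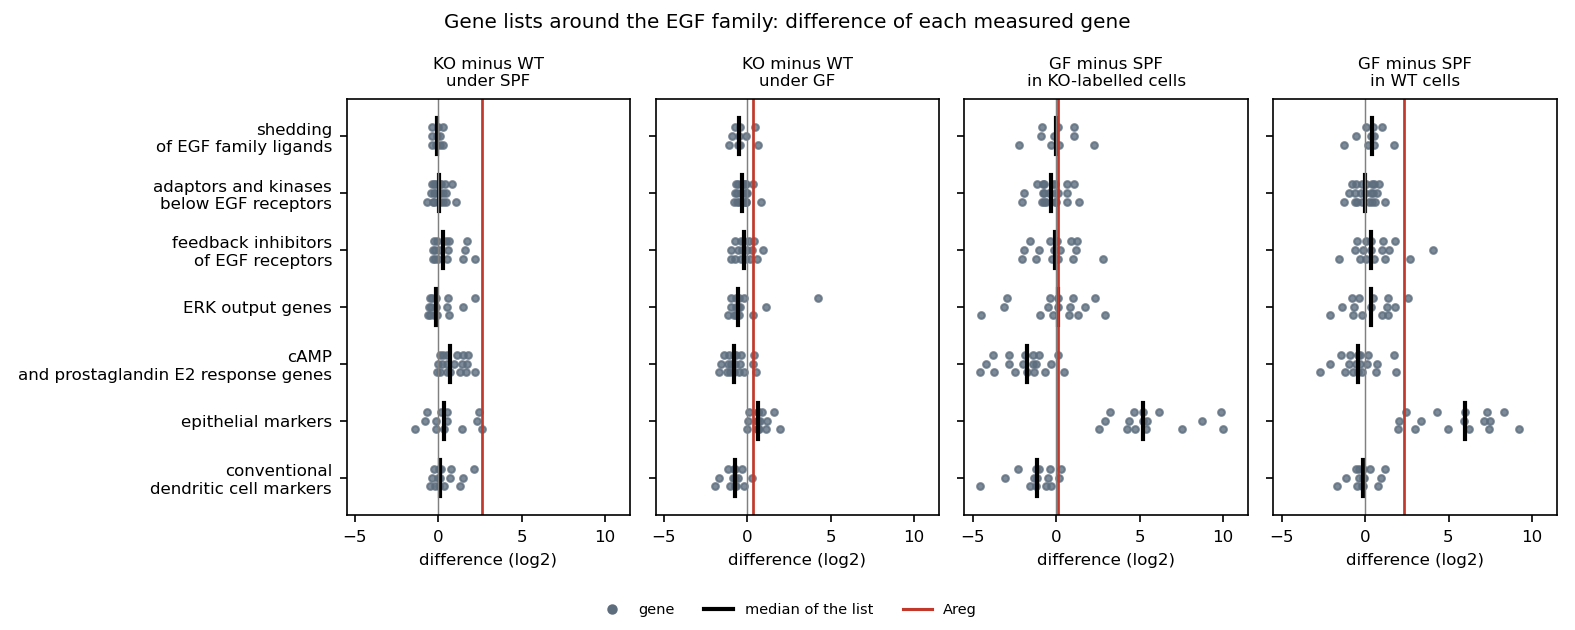
Difference (log2) of each measured gene of 7 lists in the 4 comparisons, with black bars at list medians and a red line at Areg; genes above background on only 1 array are drawn at their measured value. Areg lies at 2.61 under SPF, where the cAMP and prostaglandin E2 list has its highest median of 0.67, and at 0.09 between housings in KO-labelled cells, where that list has a median of -1.73; epithelial markers lie right of 0 in both housing comparisons.

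Between housings the pathway lists had genes past the line in both directions. Feedback inhibitors had 4 of 16 higher and 5 lower under GF in KO-labelled cells, and 6 of 17 higher and 1 lower in WT cells. Genes that follow ERK activity had 5 of 16 higher and 4 lower in KO-labelled cells, and 6 of 15 higher and 2 lower in WT cells. Shedding genes had 3 of 10 higher and 1 lower in KO-labelled cells and 2 higher and 1 lower in WT cells, and adaptors and kinases 2 of 22 higher and 3 lower in KO-labelled cells and 1 each way in WT cells. In KO-labelled cells the balance depended on the scaling: scaling to the median gave 1 higher and 9 lower for adaptors and kinases, 1 and 3 for shedding genes, 2 and 5 for feedback inhibitors and 4 and 4 for genes that follow ERK activity, and for the last the deposited table gave 7 and 3 and the offset background 2 and 3. The shares of all genes given above for the same comparisons are the measure to set these counts against.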

How the data were processed

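Cy3-labelled cDNA of 4 groups, 1 array each, was read on 1-colour Agilent mouse arrays; per the file headers the software was Feature Extraction 10.10.1.1 with protocol GE1_1010_Sep10 and a design on mm9. The deposited scanner files hold an intensity per spot, background-subtracted by the software and not scaled between arrays. A deposited series table holds intensity values that equalled the scanner's processed signal times 1 constant per array (8.236 KO-labelled SPF, 8.300 WT SPF, 7.960 KO-labelled GF, 7.082 WT GF; column medians 216.3, 237.2, 331.4 and 235.7), so linear and uncentred; what set the constants is unknown. It served as an alternative. The number of arrays, and no read depth, limits precision.

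Here log2 of the processed signal minus the array's 75th percentile was taken over non-control, unflagged spots; 3671 control spots were left out, spots of a probe were averaged, and 84 of 55681 probes with all spots flagged were dropped. Accessions were matched to RefSeq (GRCm38.p6), naming 27191 probes and 20637 genes; 19 probes with conflicting genes stayed unnamed. The probe with the highest mean stood for a gene. With 1 array per group no test was run. A call means 2-fold or more. The 9 genes and the 15 other lists (189 symbols, 186 on the array) were chosen with earlier results of these data known. Genes named from those lists were mostly picked from those at least 2-fold different between genotypes, and not every such gene is named. The comparison step was tested on simulated data. Alternatives were quantile, cyclic loess and median scaling, normexp with an offset of 50 on the median signals (limma 3.58.1, R 4.3.3), the deposited table, a mean over probes, flagged spots kept, detection on both arrays and a line of 1.5-fold. Figures used Python 3.11.15 and matplotlib 3.10.9.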

Additional observations from a re-analysis of the deposited data

Results flagged for a closer look

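The KO minus WT difference of Hbegf was -0.16 under SPF and 0.33 under GF, opposite in sign, and the difference between them (-0.49) was not tested. The KO minus WT difference of Egfr on its brightest probe was 0.25 under SPF and -0.02 under GF, also opposite in sign and not tested. All 4 values lie inside the 2-fold line, and the one of -0.02 was positive in the deposited table's scaling, at 0.26.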

How the results depend on the processing

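Between genotypes under SPF the count of members at least 2-fold different was 2, and it was 1 with quantile, cyclic loess or median scaling, with normexp on median signals and when both arrays had to be above background, where Ereg came inside the line or was left out, and 4 at a line of 1.5-fold, which adds Nrg1 and Erbb3. Between housings in KO-labelled cells the count of 6 became 3 when both arrays had to be above background, which leaves out Ereg, Nrg1 and Erbb2. The Areg difference kept its side of the 2-fold line in all 4 comparisons under the alternatives run, with 1.87 to 2.65 between genotypes under SPF, 0.15 to 0.64 under GF, -0.18 to 0.44 between housings in KO-labelled cells and 1.69 to 2.34 in WT cells. Of 170 values of the other members under alternatives, 161 kept their side of the line, 7 came inside it, 2 moved past it (Egfr under SPF at 1.96 as a mean over probes, Ereg under GF at 1.27 in the deposited table) and 0 called values changed sign. The cause of these shifts was not tested. Normexp on mean signals was not run, since the scanner files hold no such column. No paired analysis was possible because each group has 1 array, and for the same reason no replicate could be left out. Tgfa and Btc, not well above background on any array, have no value to compare, and levels near background give bounds at most.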
